A study of Mus musculus with 6 samples.

Results

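Osteoclasts are the giant multinucleate cells that dissolve bone. They seal a pocket against the bone surface, pump protons into it through the vacuolar H+-ATPase, release chloride beside the protons, and secrete enzymes that digest the collagen once the mineral has gone. The vacuolar H+-ATPase itself is present in nearly every cell, where it acidifies lysosomes and other vesicles, and it has a cytosolic V1 part that splits ATP and a membrane V0 part that carries protons. Several subunits exist as isoforms, some used everywhere and others mainly in osteoclasts, acid-secreting epithelia, neurons or testis. In the ear, the otic capsule is bone, and acid-secreting cells of the endolymphatic sac use the epithelial isoforms.

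The genes described here were chosen by name from a table of 55401 genes. They are 38 protein-coding genes, of which 26 have symbols of the pump family (beginning Atp6v or Atp6ap) and 12 are Tcirg1, Clcn7, Ostm1, Acp5, Ctsk, Calcr, Ocstamp, Dcstamp, Oscar, Nfatc1, Itgb3 and Src. The choice used symbols and not measured values, but it was made with earlier results of these data known. By role, 9 genes are grouped here as osteoclast-specific (Tcirg1, Atp6v0d2, Acp5, Ctsk, Calcr, Oscar, Itgb3, Dcstamp and Ocstamp), 16 are ubiquitous pump subunits or their accessory proteins, and 8 are pump isoforms restricted to epithelia, neurons or testis or the related Atp6ap1l. The name osteoclast-specific is a group label, and how much other cells of the sample add to these genes was not tested. The other genes are the chloride exchanger Clcn7 with its partner Ostm1, the regulators Nfatc1 and Src, and Atp6v1fnb, whose symbol marks it as a neighbour of Atp6v1f and which is not counted as a subunit here. Of the 38 genes, 34 passed the filter on low counts and were tested.

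RNA of whole mouse inner ear, of every cell type together, was sequenced in 3 libraries of wild-type mice (WT) and 3 libraries of mice mutant for Pou3f4 (labelled Pou3f4y/-, here KO). Pou3f4 encodes a transcription factor that otic mesenchyme needs, and the submitters' design text sets the comparison to the question of how pigment forms in the mutant inner ear. All 6 libraries carry the same further labels, among them a cell line field reading interstitial cells beside a cell type field that covers every cell. The labels give no treatment that differs between the groups, no age, sex or strain, and do not say which part of Pou3f4 the allele lacks or whether libraries came from separate animals, so p-values measure the spread between these libraries, which may be partly technical. Library totals were 18409409 to 23323953 counts, and Pou3f4 was at 58.3 to 114 CPM (counts scaled by library size with the TMM method) in WT and 1.22 to 1.96 CPM in KO. Xist, the RNA of the inactive X chromosome, had 6 counts in WT replicate 3, only 1 in KO replicate 1, and 9143 to 15783 in the other 4 libraries. The y/- in the genotype label writes a hemizygous male, so KO replicates 2 and 3 go against it. Genes were also fitted with a term for Xist reads. In that fit 0 members passed, but so did 0 of all 19687 genes tested, so it says nothing about the members in particular. Counts of the KO libraries lay closer together than those of WT (chi-square per degree of freedom over genes of 6.69 to 8.15 between KO libraries and 39.7 to 88.7 between WT libraries, where sampling noise alone gives a value near unity).

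Markers of the labelled tissue were present, with all 11 listed inner ear genes detected. Cochlin, Coch, was at 203, 854 and 781 CPM in WT and at 263, 246 and 258 CPM in KO. These groups overlapped (means 613 ± 356 and 256 ± 8.56 CPM, SD, n = 3 each, edgeR adjusted p = 0.222). Of these 11 genes, 1 passed the adjusted threshold, Otor, which fell (background 0.183% lower). Bone genes were abundant too. Per kilobase of exon, cathepsin K, Ctsk, ranked between 7th and 17th of 21817 protein-coding genes in every library, and tartrate-resistant acid phosphatase, Acp5, between 16th and 61st. The summed level of 8 osteoblast and osteocyte markers was 6990 to 10090 CPM in WT against 9737 to 10283 CPM in KO. In bulk tissue, fewer cells of a type and less RNA per cell cannot be told apart.

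By the criterion used across the whole table (edgeR quasi-likelihood test, Benjamini-Hochberg adjusted p under 0.05), 0 of the 34 tested members differed between the genotypes, where 0.396% of all 19687 genes tested did (0.213% higher and 0.183% lower in KO). At an unadjusted p under 0.05, 26 members differed (background 19.6%), 22 higher in KO (background 8.71%) and 4 lower (background 10.9%). DESeq2 called 18 (background 8.14%), of which 15 were higher (background 3.25%) and 3 lower (background 4.89%), and limma-voom called 0 (background 0.406%). The libraries of the groups did not overlap for 25 members that were higher in KO (background 15%) and for 4 that were lower (background 12.7%, and 27.7% in either direction). The call rested on single libraries. Without WT replicate 1, edgeR called 14 members higher (background 3.6%) and 4 lower (background 5.46%, and 9.06% in either direction). Without WT replicate 2 it called 14 higher (background 1.41%) and 2 lower (background 2.37%, and 3.78% in either direction). Without any other single library it called 0 members, but also 0 of all genes tested.

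The direction differed by role. All 9 osteoclast-specific genes had fold changes above 0, with a median log2 fold change (KO over WT) of 0.92 and a range of 0.52 to 1.04. Of the 16 ubiquitous pump genes, 15 were above 0, with a median of 0.32 and a range of −0.42 to 0.64. The 4 tested restricted isoforms were all below 0, with a median of −0.75 and a range of −1.64 to −0.51. The median over all genes tested was −0.01. Without WT replicate 1, the osteoclast-specific and ubiquitous medians were 0.75 and 0.22, and without WT replicate 2 they were 1.10 and 0.46.

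**Figure D1:**
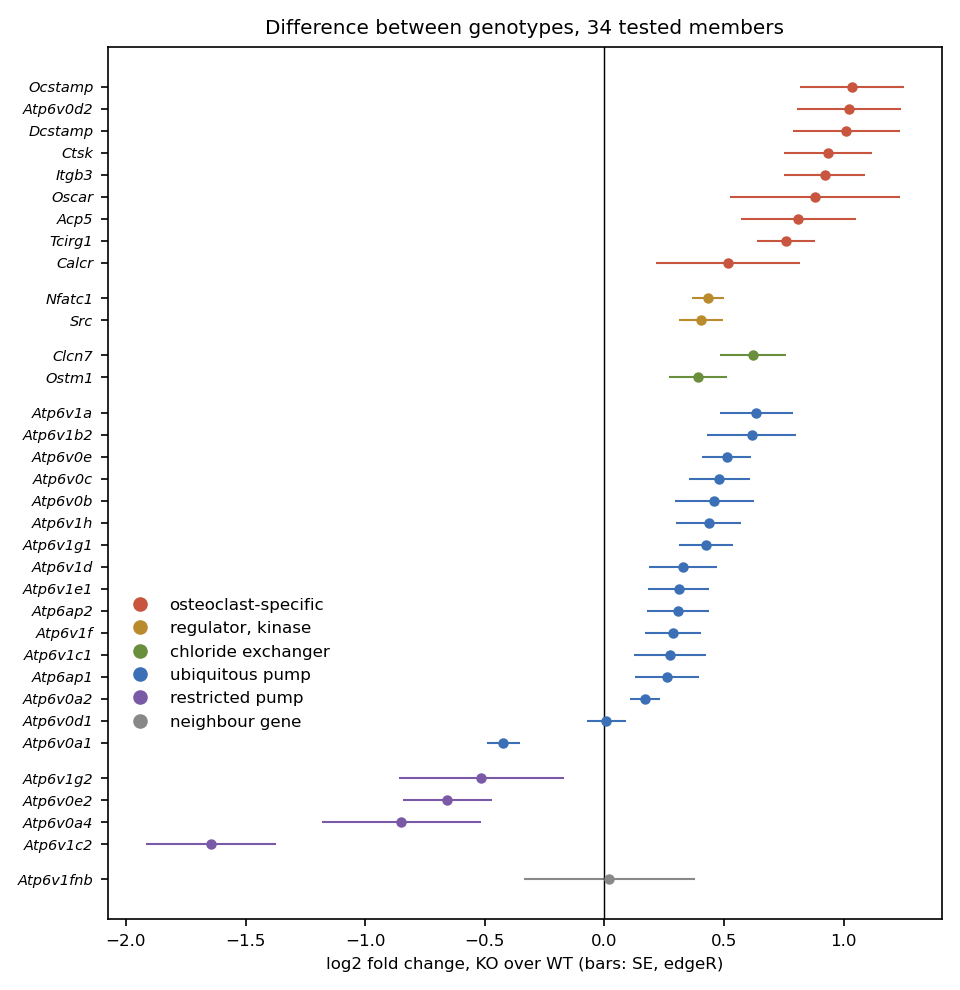
Log2 fold change of KO over WT for each of the 34 tested members (points, with bars for the SE of edgeR), grouped by role. The osteoclast-specific genes lie between 0.52 and 1.04, the ubiquitous pump genes between −0.42 and 0.64 and the restricted isoforms between −1.64 and −0.51, and 0 members passed the adjusted threshold.

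The enzymes secreted on to bone were the most abundant members. Ctsk (ENSMUSG00000028111, mm10 chromosome 3, 95499256 to 95509362, plus strand), which cleaves type I collagen in the acid pocket, was at 1681, 2785 and 2028 CPM in the WT libraries 1 to 3 and at 3941, 4197 and 4277 CPM in KO replicates 1 to 3. The lowest KO library lay above the highest WT library. The fold change was 1.91 (log2 0.94, SE 0.18, edgeR adjusted p = 0.0887), and DESeq2 gave an adjusted p of 0.000142. Acp5 (ENSMUSG00000001348, chromosome 9, 22126727 to 22135711, minus strand), the phosphatase used as a stain for osteoclasts, was at 866, 1753 and 1396 CPM in WT and at 2236, 2401 and 2407 CPM in KO. The groups did not overlap here either, with a fold change of 1.75 (log2 0.81, SE 0.24, edgeR adjusted p = 0.163). Exons of Acp5 overlap 6530413G14Rik on the opposite strand over 6.7%, and that gene held 103790 counts against 227556 for Acp5, so part of its reads may be shared.

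The promoter sequences of 3 members are shown as 1 example each of the resorption enzymes, the surface receptors and the chloride exchanger genes. Each line gives the 250 bases before the transcription start from RefSeq (GRCm38.p6), read 5′ to 3′ along the gene. The windows are chr3:95498960-95499209 (plus strand) for Ctsk, chr7:3616158-3616407 (minus strand) for Oscar and chr17:25133141-25133390 (plus strand) for Clcn7. Capitals mark matches on either strand to CACGTG, the E-box of TFEB and MITF, to CATGTG, another E-box of MITF, to GAGGAA, a core of PU.1 sites, and to TGGAAA, a core of NFAT sites. No matches overlap one another in these windows.
Ctsk: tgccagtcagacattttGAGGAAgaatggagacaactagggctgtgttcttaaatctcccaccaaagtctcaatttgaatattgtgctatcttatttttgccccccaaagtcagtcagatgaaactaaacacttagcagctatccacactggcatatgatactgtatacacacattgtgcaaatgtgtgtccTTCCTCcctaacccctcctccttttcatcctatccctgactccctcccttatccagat
Oscar: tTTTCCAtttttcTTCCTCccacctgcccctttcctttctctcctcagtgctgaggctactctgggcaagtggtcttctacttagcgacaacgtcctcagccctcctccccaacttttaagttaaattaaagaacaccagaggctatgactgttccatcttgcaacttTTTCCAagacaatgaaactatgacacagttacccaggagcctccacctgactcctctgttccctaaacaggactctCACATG
Clcn7: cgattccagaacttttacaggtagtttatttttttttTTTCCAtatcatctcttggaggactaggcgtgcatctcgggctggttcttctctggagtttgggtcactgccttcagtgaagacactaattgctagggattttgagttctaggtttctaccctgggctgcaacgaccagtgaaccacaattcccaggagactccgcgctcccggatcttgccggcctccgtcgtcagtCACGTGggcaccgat

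In Ctsk the capitals are matches to GAGGAA, beginning 233 and 58 bases before the start. The Ctsk window ends at 95499209, ahead of the gene start at 95499256 given above. Unlike for Oscar and Clcn7, the bases after it were not found near the beginning of an annotated transcript, so the Ctsk positions are less certain. The Oscar window holds a CATGTG match beginning 6 bases before the start, a GAGGAA match and 2 TGGAAA matches. In Clcn7 a TGGAAA match begins 213 bases and a CACGTG match 15 bases before the start. RefSeq windows were found for 27 of the 38 members (36 windows), and Atp6v0d2, Itgb3, Dcstamp, Ocstamp and Nfatc1 were among those without one. Among the windows of members, 8.33% held CACGTG, 11.1% CATGTG, 22.2% GAGGAA and 19.4% TGGAAA. The shares over all 32851 windows of the same length were 6.02%, 12.3%, 23.3% and 18.6%. CACGTG was in 3 windows of members, in Atp6v0b, Atp6v1a and Clcn7, and the shares of members lay close to those over all promoters for each motif. A match is a description of the letters and not a binding site.

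The pump subunits enriched in osteoclasts are a3, the product of Tcirg1, whose loss causes osteopetrosis, and d2, the product of Atp6v0d2, which also acts in the fusion of precursors. Atp6v0d2 (ENSMUSG00000028238, chromosome 4, 19876841 to 19922605, minus strand) was at 80.1, 152 and 112 CPM in WT and at 231, 242 and 227 CPM in KO. The KO libraries were all higher than the WT libraries, with a fold change of 2.03 (log2 1.02, SE 0.22, edgeR adjusted p = 0.102, DESeq2 adjusted p = 0.000461). Tcirg1 (ENSMUSG00000001750, chromosome 19, 3896050 to 3907133, minus strand) was at 90.0, 118 and 90.7 CPM in WT and at 167, 167 and 172 CPM in KO. The groups did not overlap, and the fold change was 1.69 (log2 0.76, SE 0.12, edgeR adjusted p = 0.0611). Without a filter on low counts, Tcirg1 was the 1 member called by edgeR (log2 0.78, adjusted p = 0.04905), where 106 of all 34032 genes were called.

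The ubiquitous counterparts had other values. Atp6v0d1 (ENSMUSG00000013160, chromosome 8, 105524465 to 105566047, minus strand), the d subunit of most cells, was at 116, 132 and 119 CPM in WT and at 127, 121 and 121 CPM in KO. These ranges overlap, and the log2 fold change was 0.01 (SE 0.08, edgeR adjusted p = 0.967), with a sign that turned with the scaling. Atp6v0a1 (ENSMUSG00000019302, chromosome 11, 101009452 to 101063719, plus strand), an a subunit found widely and most abundant in neurons, was at 108, 108 and 114 CPM in WT and at 82.1, 83.8 and 80.4 CPM in KO. With edgeR it was the only ubiquitous member below 0, with no overlap between the groups (log2 −0.42, SE 0.07, edgeR adjusted p = 0.0615, DESeq2 adjusted p = 2.88e-05). Atp6v0a2, the a subunit of the Golgi and endosomes, was at 72.9 to 75.5 CPM in WT against 82.3 to 83.6 CPM in KO (log2 0.17, SE 0.06). Exons of Atp6v0a2 overlap 4930404A12Rik on the opposite strand over 9.9%.

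The difference between osteoclast and ubiquitous isoforms was tested as a ratio of counts per exon kilobase within each library. The d2 to d1 ratio was 0.457, 0.757 and 0.626 in the WT libraries and 1.20, 1.32 and 1.24 in the KO libraries. Levels per kilobase of d2 were thus below those of d1 in every WT library and above them in every KO library. The ratio was 2.09-fold higher in KO (difference of 1.06 on the log2 scale, means −0.74 ± 0.37 in WT and 0.33 ± 0.07 in KO, SD, n = 3 each, exact two-sided permutation p = 0.1). The a3 to a1 ratio was 1.19, 1.56 and 1.13 in WT and 2.90, 2.84 and 3.04 in KO, 2.29-fold higher (difference of 1.19 on the log2 scale, exact two-sided permutation p = 0.1). Adjusted over the 2 ratios both p-values were 0.1, which is the smallest p that 3 against 3 libraries allow, so neither could pass 0.05. Every KO ratio lay above every WT ratio, so leaving out 1 library could not turn the sign of either difference. The size then ranged between 0.86 and 1.23 for d2 to d1 and between 1.10 and 1.34 for a3 to a1.

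As shares of their subunit family per exon kilobase, d2 made up 31.4%, 43.1% and 38.5% of d in WT and 54.5%, 57.0% and 55.4% in KO. Tcirg1 made up 39.9%, 47.7% and 40.2% of the a subunits in WT and 58.6%, 58.8% and 59.4% in KO. The summed level of the d family was 110 ± 18.0 CPM per kilobase in WT and 154 ± 3.06 in KO, and that of the a family 50.6 ± 2.78 and 62.2 ± 0.542 (SD, n = 3 each). Tcirg1 was the largest a isoform in all 6 libraries, with Atp6v0a1 at 33.2 ± 2.53% in WT and 20.1 ± 0.581% in KO. Each of these 4 genes, d1, d2, a1 and a3, held at least 1434 counts in every library.

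**Figure D2:**
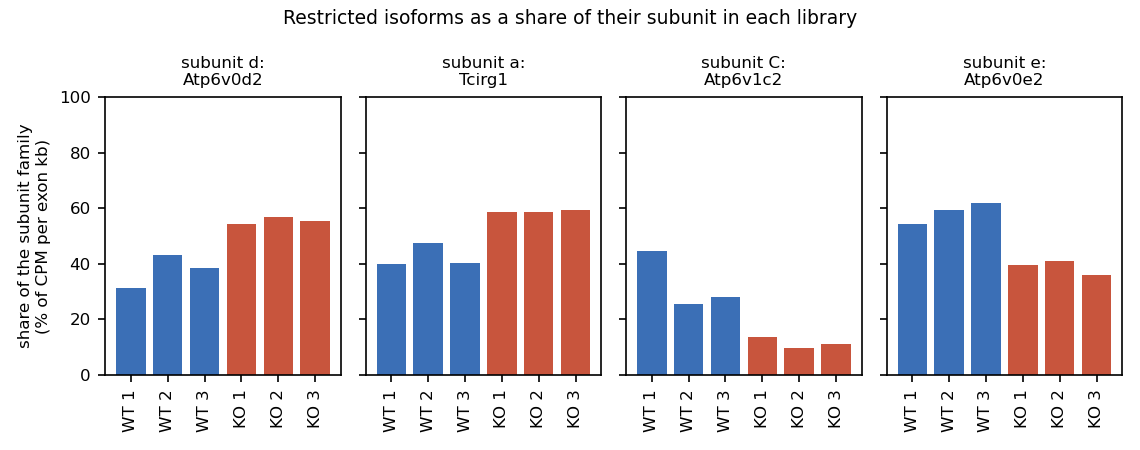
Share of Atp6v0d2, Tcirg1, Atp6v1c2 and Atp6v0e2 within their subunit family, in percent of CPM per exon kilobase, in each of the 3 WT (blue) and 3 KO (red) libraries. The d2 share is 31.4% to 43.1% in WT and 54.5% to 57.0% in KO, and the Tcirg1 share 39.9% to 47.7% and 58.6% to 59.4%. The shares of Atp6v1c2 and Atp6v0e2 are lower in every KO library than in every WT library.

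Among the other ubiquitous subunits, singled out after their values were seen, the ATP-splitting core had the largest fold changes. Atp6v1a, the catalytic A subunit, was at 196, 297 and 250 CPM in WT and at 376, 392 and 387 CPM in KO (log2 0.64, SE 0.15, edgeR adjusted p = 0.124). Atp6v1b2, the B subunit of most cells and of osteoclasts, was at 233, 395 and 317 CPM in WT and at 491, 486 and 471 CPM in KO (log2 0.62, SE 0.18, edgeR adjusted p = 0.165). In both, every KO library exceeded every WT library, and WT replicate 1 was the lowest. The proteolipid ring gene Atp6v0c was at 149 to 207 CPM in WT against 240 to 253 CPM in KO (log2 0.48), a value that can include reads of 2 processed pseudogenes, of which one held 821 counts. Atp6v0e, a small V0 subunit, was at 71.7 to 91.6 CPM in WT against 113 to 117 CPM in KO (log2 0.51, SE 0.10).

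The remaining V1 subunits of the stalks and their regulator had smaller differences. Atp6v1h, the regulatory H subunit, and Atp6v1g1, a stalk subunit, had log2 fold changes of 0.44 and 0.42, and Atp6v1d, the central rotor, of 0.33. For Atp6v1e1, Atp6v1f and Atp6v1c1 the values were 0.31, 0.29 and 0.28, and the libraries of Atp6v1c1 overlapped between groups (42.0 to 60.0 CPM in WT against 52.9 to 64.9 CPM in KO). The accessory proteins were close to them, with Atp6ap1, needed for assembly of V0, at 0.26 and Atp6ap2, also called the prorenin receptor, at 0.31. In total 13 of the 16 ubiquitous genes were higher in KO with no overlap (background 15%), 10 of them at an unadjusted p under 0.05 (background 8.71%). DESeq2 called 5 of the 16 higher (background 3.25%) and Atp6v0a1 lower (background 4.89%). Exons of Atp6v0b, a ring subunit (log2 0.46), overlap Gm12841 on the opposite strand over 11.8%.

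The tested isoforms restricted to other tissues had fold changes below 0. Atp6v1c2, given in full after its values were seen, the C subunit of epithelia such as kidney and lung, was at 13.2, 8.03 and 7.17 CPM in WT and at 3.26, 2.61 and 3.19 CPM in KO. That is 3.12-fold lower in KO with no overlap between the groups (log2 −1.64, SE 0.27, edgeR adjusted p = 0.063, DESeq2 adjusted p = 1.43e-05). Its share of the C subunits per kilobase was 32.9 ± 10.3% in WT and 11.6 ± 2.03% in KO (SD, n = 3 each, not tested). Its exons overlap those of Pdia6 on the opposite strand over 2.3%, and Pdia6 held 34382 counts against 725, so some of its reads may belong to Pdia6.

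Atp6v0a4, the a subunit of acid-secreting epithelia, whose loss causes renal acidosis with deafness in humans, was at 8.77, 4.38 and 4.98 CPM in WT and at 3.53, 2.44 and 4.11 CPM in KO. All KO libraries were lower than all WT libraries, but the nearest of them differed by less than the spread within WT (log2 −0.85, SE 0.33, edgeR adjusted p = 0.231). Without WT replicate 1 the log2 fold change of Atp6v0a4 was −0.50. Over 5.2% of its exons it overlaps D630045J12Rik on the same strand. The B subunit of the same cells, Atp6v1b1, did not pass the filter, with 14, 0 and 1 counts in WT and 2, 4 and 0 in KO. A count of 0 allows up to 3 counts, or 0.131 to 0.168 CPM in these libraries, as a limit of counting error only. Atp6v1g3, the G subunit of kidney, had 5, 0 and 0 counts in WT and 2, 1 and 0 in KO, and Atp6v1e2, the testis E subunit, had 1 count in all. WT replicate 1 thus held the most reads of Atp6v1c2, Atp6v0a4, Atp6v1b1 and Atp6v1g3. It also held the most of Foxi1, the regulator of acid-secreting cells (19, 0 and 5 counts in WT and 0, 0 and 1 in KO). Rhbg (17, 1 and 3 counts in WT) and Slc4a9 (11, 3 and 2) of the same marker list were also highest in WT replicate 1. Rhcg (0, 0 and 1 counts), Car12 (17.1, 25.3 and 32.3 CPM) and Slc26a4 (11.2, 11.4 and 7.12 CPM) were not. The summed level of the 6 markers of such cells was 31.0, 37.0 and 40.0 CPM in WT, where replicate 1 was the lowest. In KO it was 25.1, 25.1 and 34.7 CPM. Of these markers only Slc26a4 and Car12 passed the filter on low counts, and neither passed the test. Their part in the result was not tested.

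Atp6v0e2 and Atp6v1g2, isoforms most abundant in brain, were the other tested members below 0. Atp6v0e2 was at 54.7, 86.2 and 81.7 CPM in WT and at 47.9, 52.3 and 40.9 CPM in KO, lower in every KO library (log2 −0.66, SE 0.19, edgeR adjusted p = 0.153). Atp6v1g2 was at 15.4, 33.0 and 40.6 CPM in WT and at 23.4, 22.6 and 16.3 CPM in KO, where the groups overlap (log2 −0.51, SE 0.35). All 6 listed neuron markers had fold changes below 0, with a summed level of 898 to 2004 CPM in WT against 727 to 1010 CPM in KO. Of these markers 0 passed the edgeR threshold, 3 had an unadjusted p under 0.05 (background 10.9% lower) and DESeq2 called 3 (background 4.89% lower). The part of neurons in the values of Atp6v0a1, Atp6v0e2 and Atp6v1g2 was not tested. Atp6ap1l, related to Atp6ap1, had 9, 21 and 12 counts in WT and 5, 8 and 6 in KO and did not pass the filter. The neighbouring gene Atp6v1fnb was at 0.447 to 0.782 CPM in WT against 0.487 to 0.872 CPM in KO.

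Chloride follows the protons through Clcn7, an exchanger that is also found in lysosomes, held stable by Ostm1, and loss of either causes osteopetrosis. Clcn7 (ENSMUSG00000036636, chromosome 17, 25133391 to 25162104, plus strand) was at 45.9, 64.1 and 63.7 CPM in WT and at 87.2, 85.4 and 94.4 CPM in KO (log2 0.62, SE 0.14, edgeR adjusted p = 0.11). Ostm1 was at 51.3, 67.7 and 52.8 CPM in WT and at 78.6, 71.7 and 75.0 CPM in KO (log2 0.39, SE 0.12, edgeR adjusted p = 0.168). In both genes the groups did not overlap, and the gap for Ostm1 was small, from 67.7 to 71.7 CPM. Both log2 fold changes lay below those of 8 of the 9 osteoclast-specific genes and within the range of the ubiquitous subunits.

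Of the 3 surface receptors, 0 passed with edgeR and 2 had an unadjusted p under 0.05, both higher in KO (background 8.71%). DESeq2 called 1, higher in KO (background 3.25%). Itgb3, the beta chain of the vitronectin receptor that anchors osteoclasts to bone, was at 112, 178 and 143 CPM in WT and at 268, 259 and 291 CPM in KO (log2 0.92, SE 0.17, edgeR adjusted p = 0.0799, DESeq2 adjusted p = 7.39e-05). Oscar, a costimulatory receptor for exposed collagen, was at 11.0, 30.4 and 30.0 CPM in WT and at 43.6, 45.9 and 42.0 CPM in KO. WT replicate 1 stood apart for Oscar, and the log2 fold change of 0.88 (SE 0.36, edgeR adjusted p = 0.241) became 0.53 without it (adjusted p = 0.01497). Calcr, the calcitonin receptor, was at 2.79, 4.90 and 2.49 CPM in WT and at 5.53, 3.92 and 5.14 CPM in KO. It was the least abundant of these genes (49 to 127 counts per library) and the only osteoclast-specific member whose groups overlapped (log2 0.52, SE 0.30, edgeR adjusted p = 0.388). The log2 fold change of Calcr was 0.88 without WT replicate 2 and 0.34 without WT replicate 3.

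Dcstamp and Ocstamp are membrane proteins needed for mononuclear precursors to fuse. Dcstamp was at 18.1, 34.1 and 31.0 CPM in WT and at 53.5, 55.8 and 58.4 CPM in KO (log2 1.01, SE 0.22, edgeR adjusted p = 0.108). Ocstamp was at 16.3, 27.3 and 29.7 CPM in WT and at 52.1, 46.9 and 51.5 CPM in KO (log2 1.04, SE 0.22, edgeR adjusted p = 0.0986). With Atp6v0d2 they had the highest fold changes of all members, and their KO libraries were all above their WT libraries.

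Nfatc1 and Src, which are used by many cells as well as by osteoclasts, differed less. Nfatc1, the transcription factor that switches on the osteoclast programme, was at 97.6, 103 and 102 CPM in WT and at 136, 135 and 137 CPM in KO. Its libraries agreed closely within each genotype and did not overlap between them, and its adjusted p was the lowest of all members (log2 0.43, SE 0.07, edgeR adjusted p = 0.0604, DESeq2 adjusted p = 3.53e-06). Src, the kinase that shapes the ruffled border, was at 42.0, 35.9 and 40.9 CPM in WT and at 51.9, 50.2 and 55.1 CPM in KO (log2 0.40, SE 0.09, edgeR adjusted p = 0.11). Without WT replicate 1, Nfatc1 and Src had log2 fold changes of 0.40 and 0.43.

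**Figure D3:**
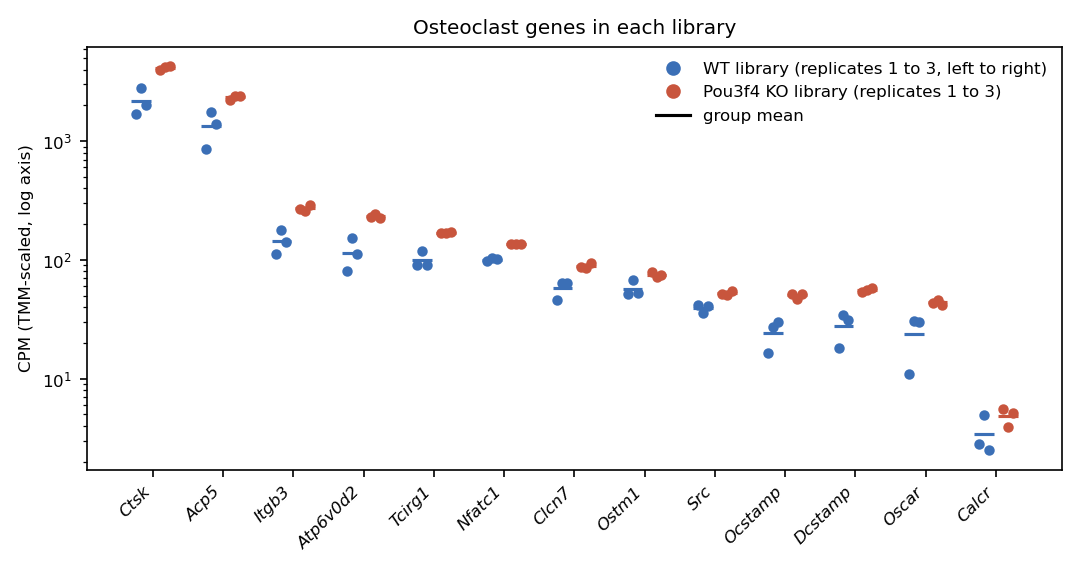
CPM of the osteoclast-specific genes, the regulators and the chloride exchanger genes in each library, on a log axis (WT blue, KO red, replicates 1 to 3 from left to right, lines for group means). The KO libraries lie above the WT libraries for every gene shown except Calcr (background 15%). WT replicate 1 is the lowest library for most genes shown, and for 5836 of all 19687 genes tested.

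The WT libraries differed among themselves in these genes and in several other marker lists. WT replicate 1 was the lowest WT library for 25 of the 34 tested members (73.5%), against 40.5% of all genes tested, and for 8 of the 9 osteoclast-specific genes. That was not particular to the members. It was also the lowest WT library for all 8 neutrophil and marrow, all 7 erythroid and all 6 neuron genes, and for 8 of 11 inner ear genes (72.7%). For lysosome, cartilage and muscle genes it was the lowest for 5 of 14, 2 of 6 and 0 of 9. The summed level of the osteoclast-specific genes was 2877, 5083 and 3863 CPM in the WT libraries 1 to 3 against 6997, 7419 and 7530 CPM in KO replicates 1 to 3. For the ubiquitous pump genes the sums were 1981, 2676 and 2259 CPM in WT against 2989, 3070 and 2966 CPM in KO. WT replicate 2 was thus the nearest WT library to KO on both sums, and the KO libraries spread far less than those of WT.

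**Figure D4:**
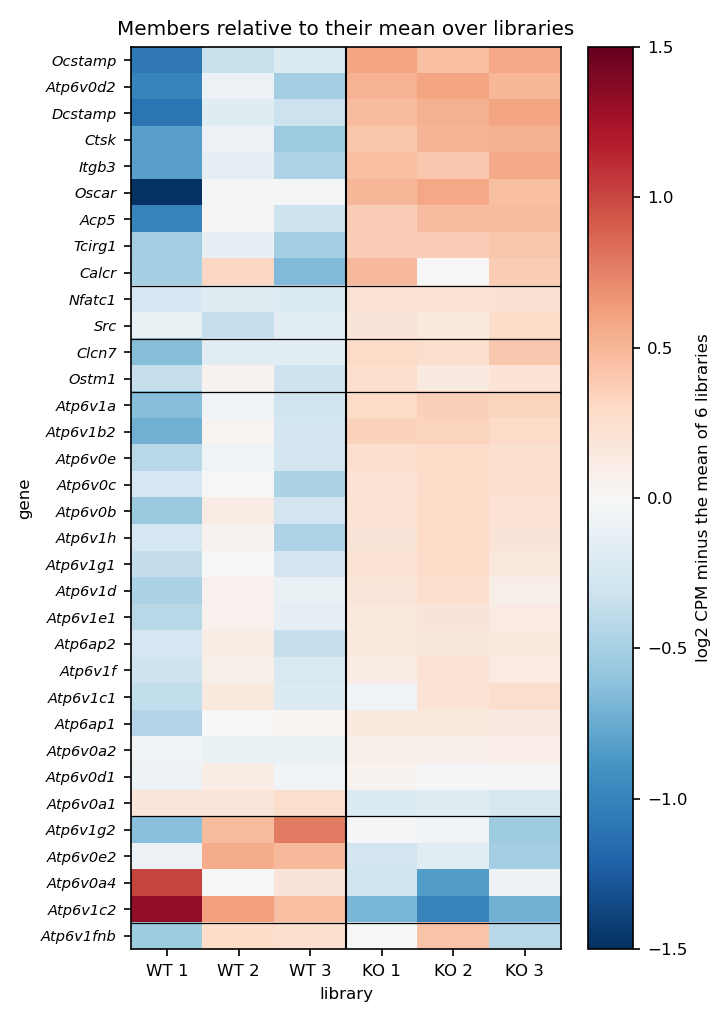
Log2 CPM of each tested member in each library, minus the mean of that gene over the 6 libraries (red above, blue below), with members in rows by role in the order of the fold change plot. Of the 9 osteoclast-specific rows, 8 (all but Calcr) are higher in every KO library than in every WT library (background 15%). The same 8 rows and 11 of the 16 ubiquitous pump rows are lowest in WT replicate 1, as are 5836 of all 19687 genes tested. Atp6v1c2 and Atp6v0a4 are highest in WT replicate 1.

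Osteoclast genes outside the members were set beside them. Of 17 such genes tested, 12 had log2 fold changes above 0, 0 passed with edgeR, 9 had an unadjusted p under 0.05, all higher in KO (background 8.71%), and DESeq2 called 9, all higher (background 3.25%). The list median was 0.47. Mmp9, the gelatinase that osteoclasts secrete, was at 2111 ± 367 CPM in WT against 3370 ± 175 CPM in KO (SD, n = 3 each, edgeR adjusted p = 0.0982). Car2, the carbonic anhydrase that supplies protons to the pump but is also abundant in red cells and glia, was at 68.2, 502 and 476 CPM in WT and at 263, 286 and 371 CPM in KO, with overlapping groups. Chosen after their values were seen, Tnfrsf11a, the receptor RANK, had a log2 fold change of 0.78 (SE 0.15), Slc9b2, a proton exchanger of osteoclasts, of 1.24 (SE 0.29), and Siglec15, an osteoclast lectin, of −0.93 (SE 0.44) at 1.82 and 0.946 mean CPM. Of the 4 cytokine genes that control osteoclast formation, 0 passed with edgeR or DESeq2 and 1, Il34, had an unadjusted p under 0.05 (lower, background 10.9%). Csf1 was at 74.2 ± 15.2 CPM in WT against 85.5 ± 6.54 CPM in KO, and the decoy receptor Tnfrsf11b at 48.5 ± 16.0 and 40.5 ± 1.01 CPM.

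Genes of general lysosomes and of macrophages, which share the pump and the lineage, were set beside the members. Of 14 lysosome genes, 0 passed with edgeR, and the median was 0.15. At an unadjusted p under 0.05, 6 were higher (background 8.71%) and 1 lower (background 10.9%). DESeq2 called 4 of them higher (background 3.25%) and 1 lower (background 4.89%). Ctsb was at 775 ± 62.9 CPM in WT against 873 ± 23.8 CPM in KO, and Ctsd, whose exons overlap Gm49369 over 34.4%, at 647 ± 33.2 and 675 ± 16.6 CPM. Of 11 monocyte and macrophage genes, 0 passed with edgeR and 5 had an unadjusted p under 0.05, all higher (background 8.71%). DESeq2 called 3 of the 11 higher (background 3.25%). Their median was 0.50, and their summed level was 653 to 952 CPM in WT against 1178 to 1277 CPM in KO. Csf1r, which osteoclast precursors also carry, was at 187 to 258 CPM in WT against 367 to 384 CPM in KO, and part of its reads may be shared, since its exons overlap Hmgxb3 on the opposite strand over 15.1%. Lyz2, the lysozyme of myeloid cells and the most abundant of the list in WT, was at 254 ± 104 CPM in WT against 372 ± 19.5 CPM in KO (SD, n = 3 each, edgeR adjusted p = 0.367). Log2 fold changes were 0.75 for Aif1, 0.74 for Csf1r, 0.64 for Cd68, 0.57 for Tyrobp and 0.55 for Lyz2. They were 0.48 for Mrc1, 0.50 for Adgre1 and 0.35 for Cx3cr1. For the complement genes C1qa, C1qb and C1qc, which complete the list, they were −0.11, 0.14 and −0.12. All of these but Csf1r and Lyz2 were named after their values were seen. None of the lysosome or macrophage markers was at 0, and the part of macrophages in the members' values was not tested.

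Markers of other tissues in the sample differed between the genotypes to different degrees, and their part in the members' values was not tested. The 9 skeletal muscle genes summed to 5651, 115 and 8732 CPM in the WT libraries 1 to 3 against 22.2, 669 and 30.7 CPM in KO, and leaving muscle, haemoglobin and mitochondrial genes out before scaling moved the osteoclast-specific median by under 0.01. Cartilage genes summed to 6961 to 7904 CPM in WT against 3499 to 4127 CPM in KO. Of the 6, 2 passed the adjusted threshold, Col2a1 and Col9a1, which both fell (background 0.183% lower). Of 8 osteoblast genes, 0 passed with edgeR and 5 had an unadjusted p under 0.05, all higher in KO (background 8.71%). The groups did not overlap for 5, all higher in KO (background 15%), and DESeq2 called 1 higher (background 3.25%), with a list median of 0.52. Erythroid genes summed to 2028 to 7876 CPM in WT against 2092 to 3358 CPM in KO, and neutrophil and marrow genes to 195 to 1153 CPM and 795 to 868 CPM, with 0 past the edgeR threshold in either list. At an unadjusted p under 0.05 the counts were 2 of 7 erythroid genes, both lower (background 10.9%), and 0 of 8 neutrophil and marrow genes. DESeq2 called 1 erythroid gene lower (background 4.89%). WT replicate 1 was the lowest of the 6 libraries for the neutrophil, erythroid, osteoblast and macrophage sums. The same held for the osteoclast-specific and ubiquitous pump sums and for that of the osteoclast genes outside the members. It did not hold for the muscle, cartilage, neuron, inner ear or lysosome sums.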

How the data were processed

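Per the labels' protocols, TRIzol RNA went into TruSeq Stranded mRNA libraries. Trimmomatic, HISAT2, Cufflinks, HTSeq and build mm10 are named, per the submitters' processing notes. The sources used here give no tool versions, annotation release or strand setting. The authors deposited 1 table of raw counts per gene. Exon lengths and overlaps came from GENCODE M21 of the same build, in which 55141 of 55401 gene identifiers were found.

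Genes were filtered with filterByExpr (minimum count 10), scaled by TMM and compared with edgeR 4.0.16 (quasi-likelihood F test, genotype alone), with p-values adjusted over all 19687 genes tested. The test was also run on simulated counts with the same spread in both groups. That setting does not cover the wider spread of the WT libraries, so nothing is concluded from it here. SE is the log2 fold change over the square root of F. CPM use TMM-scaled sizes, and 0.5 counts were added for ratios. DESeq2 1.42.0 and limma 3.58.1 (voom) in R 4.3.3 were alternatives, with other scalings and filters, the replicate number as a block, a term for Xist reads and each library left out. The members and lists were chosen with earlier results of these data known. By rule, values in every library are given for Tcirg1, Atp6v0d1, Atp6v0d2, Atp6v0a1, Atp6v0a4, Atp6v1b1, the 12 members picked by name and any member past the threshold, and other members by range and count. From each other list the rule takes members past the threshold, or else at most 2 of the highest mean CPM. Genes named or given in full beyond it (among them Atp6v1a, Atp6v1b2, Atp6v1c2, Atp6v0e2, Atp6v1g2, Atp6v1g3, Il34, Aif1, Cd68, Tyrobp, Mrc1, Adgre1, Cx3cr1, C1qa, C1qb, C1qc, Coch, Foxi1, Rhbg, Rhcg and Slc4a9) were chosen after their values were seen.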

Additional observations from a re-analysis of the deposited data

How the results depend on the processing

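The number of members past the threshold, 0 with edgeR, was 1 without a filter on low counts, 18 with DESeq2 and 0 to 18 when 1 library was left out (18 without WT replicate 1 and 16 without WT replicate 2). For the other osteoclast and cytokine genes, 0 with edgeR, it was 9 with DESeq2 and 0 to 15 with 1 library left out. Over all genes, 78 with edgeR, it was 106 without a filter on low counts (of 34032 tested), 1603 with DESeq2 and 0 with the Xist term. With 1 library left out it was 0 to 1814 over all genes (1814 without WT replicate 1, 760 without WT replicate 2 and 0 without any other). The replicate block left 1 gene called over all genes and 0 members, and the libraries share only a number (same-numbered libraries had correlations of deviations of −0.13, −0.29 and −0.19). The osteoclast-specific median lay between 0.75 and 1.10 and the ubiquitous pump median between 0.22 and 0.46 with 1 library left out. Both medians stayed above 0 in every alternative run. The change of Atp6v0d1 was −0.0001 with RLE scaling and with DESeq2, and −0.0413 to 0.0717 with 1 library left out. The 16 other members followed singly (Atp6v0d2, Atp6v0a1, Atp6v0a4, Atp6v1c2 and the 12 picked by name) kept their direction in every alternative run, and the rest were followed only in the counts and medians. The cause of these moves was not tested. Low counts limit Calcr, Atp6v1fnb, Atp6v1b1, Atp6v1g3, Atp6v1e2 and Atp6ap1l. In the KO libraries, Atp6v0a4 held only 56 to 81 counts and Atp6v1c2 only 59 to 75.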
